A study of Homo sapiens with 24 samples.

Results

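The mRNA time course of A549 cells kept in control medium was taken from the mRNA values of the series by sample label, and the medium conditioned by CAF cells was not used. A549 is an established human lung adenocarcinoma line. The members are 6 of the 24 samples of the series, 1 library of polyadenylated RNA at each of 3, 6, 12, 24, 48 and 72 h, and the 11881 of 22026 genes whose mean over these libraries was at least 1 RPKM (reads scaled to the length of the gene model and to the mapped reads of the library). At the edge of this filter, 166 genes had a mean of 1 to 1.1 RPKM and 223 genes just outside it a mean of 0.9 to 1 RPKM. The early group was 3, 6 and 12 h and the late group 24, 48 and 72 h. All 6 libraries share the line and the medium; the make-up of the control medium, its renewal and the plating density are not stated in the labels. Although the design text speaks of 2 biological replicates, each time has a single column, so a time has no replicate, the 3 times of a group serve as its replicates, and p-values measure only the spread between these libraries.

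In general, a culture left in its medium passes from a recent change of medium to a dense, nutrient-poorer state. Growth factors and cell tension act through the SRF and the YAP and TEAD factors on genes such as CTGF and CYR61, E2F factors and the DREAM complex switch the genes of DNA replication and mitosis on and off, FOXO factors act on cell cycle brakes when growth signalling is low, and SREBP factors act on sterol and fatty acid enzymes. None of these activities was measured here, and the values below are transcript levels only.

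The libraries differed in more than time. Depth, inferred from how far apart the lowest values of short genes lie, was 23890000 to 27470000 reads in the early libraries and 35390000 to 40080000 reads in the late ones, so depth and time cannot be told apart. The share of summed RPKM in the 10 highest genes was 18.6 to 19.5% early and 14.6 to 17.0% late, and 11545 to 11616 genes reached 1 RPKM early against 11741 to 12300 late. The keratins KRT7, KRT8 and KRT18, which mark epithelial cells, lay between 721.31 and 2160.88 RPKM in every library. They are among the 10 lung epithelial markers in the table, of which 5 stayed under 0.5 RPKM throughout, the surfactant gene SFTPD (highest value 0.37 RPKM) being one. Of the rest, ABCA3 was 5.4 to 8.18 RPKM and NAPSA 0.24 to 1.15. Of markers of other cells, 9 fibroblast genes summed to 3.52 to 4.16 RPKM early and 4.42 to 7.49 late, with 1 of the 9 (FAP) at a mean of at least 1 RPKM and 4 under 0.5 in every library. The 8 leukocyte genes summed to 21.27 to 23.5 RPKM early and 20.07 to 21.9 late, nearly all of it CD68, and the 5 endothelial genes to at most 0.34. In bulk RNA, fewer cells of a type and less RNA per cell cannot be told apart in any value that follows.

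Differences of at least 2-fold were most numerous between 24 and 48 h. Between neighbouring times, such differences on the log2(RPKM + 0.5) scale were found upwards and downwards in 15 and 48 genes from 3 to 6 h, 21 and 23 from 6 to 12 h, and 17 and 29 from 12 to 24 h. From 24 to 48 h there were 242 upwards and 70 downwards, and from 48 to 72 h 69 and 29, in each case without a replicate of either time. The median absolute log2 difference over the tested genes gave another order. Between neighbouring times it was 0.166 from 3 to 6 h, 0.148 from 6 to 12 h, 0.219 from 12 to 24 h, 0.212 from 24 to 48 h and 0.167 from 48 to 72 h. The 24 h library, counted as late, was 0.241 from 3 h, 0.187 from 6 h and 0.292 from 72 h, and 3 and 72 h were 0.351 apart.

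**Figure D1:**
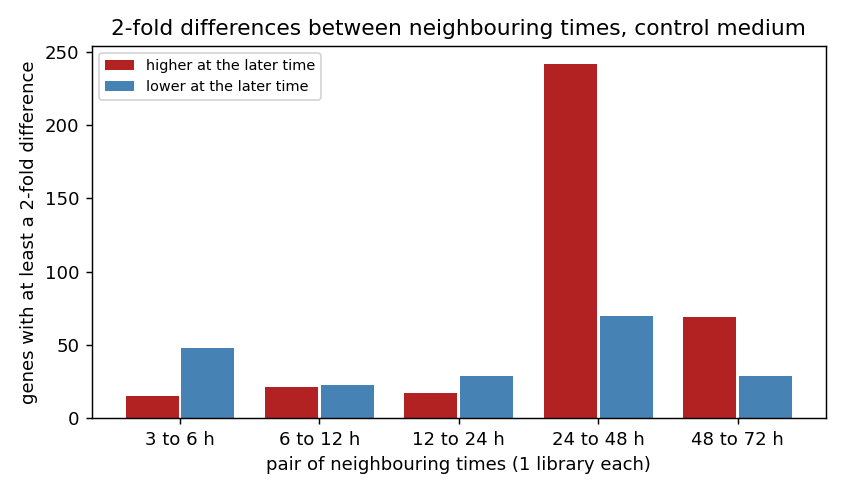
Number of tested genes (vertical axis) that differ by at least 2-fold between each pair of neighbouring times, 1 library per time; red bars are genes higher and blue bars genes lower at the later time. The step from 24 to 48 h stands highest, with 242 genes higher and 70 lower.

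Late against early, the moderated limma test called 0 of 11881 genes higher and 0 lower (0% and 0%) at a Benjamini-Hochberg adjusted p under 0.05, with a smallest adjusted p of 0.0648. An unadjusted p under 0.05 was reached by 3647 genes (30.7%), 2827 of them higher (23.8%) and 820 lower late (6.9%). A difference of at least 1 on the log2 scale was found upwards in 231 genes (1.94%) and downwards in 72 (0.606%), and 7717 genes (65%) had a positive difference. All 3 late values lay above all 3 early ones in 3236 genes (27.2%) and below them in 886 (7.46%). The outcome turned on the 24 h library, since without it the same test called 2540 genes higher and 1128 lower late, and 48 and 72 h against 3 and 6 h gave 2017 and 1022. The counts of this paragraph are on the scale as deposited, where the median difference was 0.12. With each library centred on its median it was -0.02, 3054 genes reached an unadjusted p under 0.05 and 0 were called.

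The second test, a slope on log2 of the hours over the same 6 libraries, called 1642 genes rising (13.8%) and 720 falling (6.06%) at an adjusted p under 0.05. The fitted change from 3 to 72 h was at least 1 on the log2 scale in 742 of the first (6.25% of tested genes) and 291 of the second (2.45%). Below, "rose" and "fell" refer to this slope, given in log2 units per doubling of time with its standard error, and the adjusted p that follows is that of the slope unless stated otherwise. It uses the libraries of the group test and is no independent evidence. The slope calls numbered 392 rising and 206 falling without the 6 h library, 191 and 113 without 48 h, and 123 and 87 without 72 h, and 0 and 0 when all 22026 genes were tested with no filter (unadjusted p under 0.05 in 5912). Of the 2362 calls, 161 were made without each library in turn, 98 of them rising. The direction of the balance depended on scaling: with each library centred on its median, 1026 genes rose and 1238 fell (45.3% rising against 69.5%), because the median tested gene was 0.12 higher late on the log2 scale as deposited. None of the 2362 calls changed sign under that centring or under quantile normalization. The rising and falling calls numbered 2016 and 768 without 3 h, 1197 and 501 without 12 h, and 1905 and 1075 without 24 h. A list count under another setting is to be read against all genes under that setting, not against 13.8% and 6.06%.

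**Figure D2:**
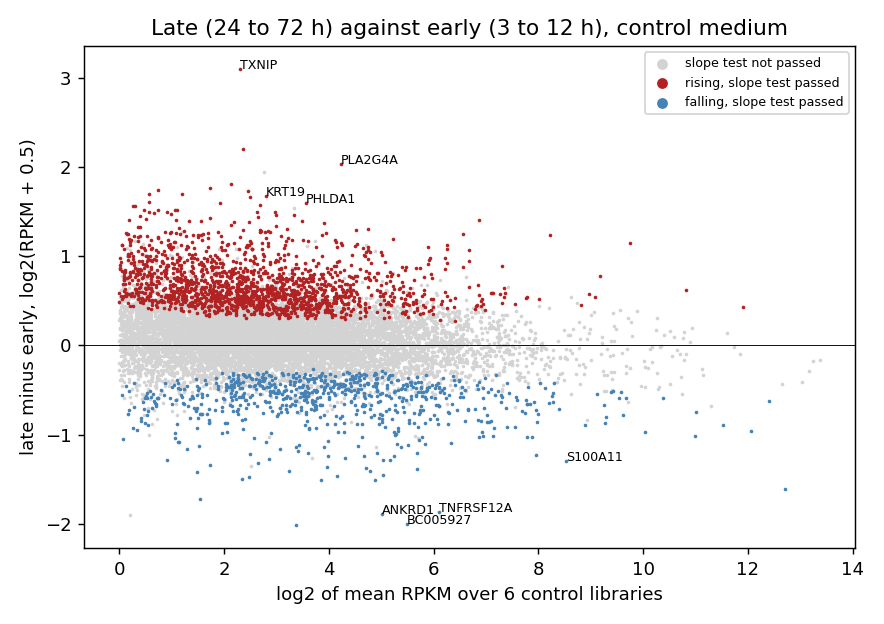
Each point is 1 of the 11881 tested genes, with log2 of its mean RPKM on the horizontal axis and its late minus early difference in log2(RPKM + 0.5) on the vertical axis; red points rose and blue points fell by the slope test. TXNIP stands highest at 3.10, and grey points between the colours did not pass.

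Among gene models of at least 400 bases with late values all above the early ones, the 12 largest rises were TXNIP, PLA2G4A, DDIT4L, ANKRD22, SLC7A2, TNFSF10, KRT19, FSTL4, GIPR, PHLDA1, LRRC4B and FCHO1. None of them passed the late against early test (adjusted p 0.0648 to 0.146), and all 12 passed the slope test. Series of 6 values are given in RPKM in the order 3, 6, 12, 24, 48 and 72 h throughout. TXNIP on chromosome 1, the thioredoxin-interacting arrestin that limits glucose uptake, was 0.08, 0.11, 0.32, 0.64, 6.81 and 21.67 RPKM. Its mean was 0.17 ± 0.13 early and 9.71 ± 10.8 late (SD, n = 3 times each), the wide late spread being the climb from 24 to 72 h. The slope was 1.11 ± 0.19 (adjusted p = 0.0103). PLA2G4A on chromosome 1, the cytosolic phospholipase that frees arachidonic acid, was 5.73, 4.82, 7.37, 10.31, 30.75 and 53.11 RPKM. Its early and late values did not overlap, and its slope was 0.70 ± 0.10 (adjusted p = 0.00851). PHLDA1 had a different shape, with 5.31, 5.43 and 5.88 RPKM early and 13.29, 20.96 and 19.9 late, a difference of 1.59 ± 0.17 (SE, log2) that was already present at 24 h. KRT19, a keratin of simple epithelia, was 1.94, 1.56, 2.65, 2.69, 5.26 and 27.63 RPKM, so that most of its difference lay in the 72 h library alone. TNFSF10, the death ligand TRAIL, was between 0.08 and 0.57 RPKM up to 24 h and 2.52 and 4.87 after it, and GIPR, the receptor of the incretin GIP, was 0.3, 0.34, 0.4, 0.68, 2.11 and 5.08. TXNIP, PLA2G4A, ANKRD22 and PHLDA1 passed the slope test without each library in turn, while the other 8 lost it without at least 1 of the 6, 48 and 72 h libraries (adjusted p up to 0.108).

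The 12 largest falls by the same rule were BC005927, TNFRSF12A, PRRG2, MPDU1, ATF5, GADD45B, SYN2, MIR22HG, TUBA4A, NEXN, TUFT1 and S100A11, again with no pass in the group test (adjusted p 0.0648 to 0.0764) and 12 of 12 in the slope test. TNFRSF12A on chromosome 16, the receptor of the cytokine TWEAK, was 126.5, 109.32, 80.96, 52.26, 25.34 and 16.72 RPKM, lower at each step. Its mean was 105.6 ± 23.0 early and 31.4 ± 18.5 late (SD, n = 3 times each), with a slope of -0.64 ± 0.06 (adjusted p = 0.00647). GADD45B, a growth arrest and stress gene, was 57.51, 46.05, 40.56, 25.42, 14.02 and 14 RPKM, and MIR22HG, the host transcript of the microRNA miR-22, was 48.81, 41.35, 30.1, 18.48, 11.58 and 14.34. Both had early values above every late value. PRRG2 and SYN2 shared another course, with PRRG2 at 4.09, 4.16 and 5.98 RPKM early and 1.21, 0.85 and 1.16 late, and SYN2, a synaptic vesicle gene, at 3.48, 4.1 and 5.38 early and 1.36, 1.01 and 1.48 late. In both the drop came in 1 step, between 12 and 24 h. The calcium-binding S100A11 was 468.01, 472.18, 615.19, 304.87, 198.45 and 151.96 RPKM. PRRG2, SYN2, NEXN and S100A11 lost the slope call without at least 1 of the 6, 48 and 72 h libraries (adjusted p up to 0.131), and the other 8 kept it without each library in turn.

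Few genes moved in 1 direction at every step: 289 increased at each of the 5 steps (2.43%) and 117 decreased (0.985%). Of the first kind the 6 with the widest range were TXNIP, FSTL4, GIPR, PXDN, LINC00263 and GATA2. The long non-coding LINC00263 was 2.34, 2.65, 3.58, 5.06, 10.55 and 12.85 RPKM, and the transcription factor GATA2 was 0.25, 0.27, 0.51, 0.69, 2.08 and 3.02. PXDN, a peroxidase that crosslinks collagen IV, was nearly level from 0.58 to 0.66 RPKM through 24 h and then 3.49 and 5.88. Of the second kind the widest were TNFRSF12A, ATF5, TUBA4A, CLN6, GADD45B and MIR181A2HG, with CLN6, a protein of the endoplasmic reticulum, at 17.22, 14.07, 12.58, 10.69, 5.89 and 3.54 RPKM and MIR181A2HG, a host transcript of miR-181, at 29.64, 28.68, 23, 21.8, 8.15 and 7.32. FSTL4, GIPR, PXDN, GATA2 and MIR181A2HG lost the slope call without at least 1 of the 6, 48 and 72 h libraries (adjusted p up to 0.112).

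CTGF and ANKRD1, whose 3 h values stood far above the rest, belong to the YAP and TEAD pathway, in which the co-activator YAP binds TEAD factors at the motif GGAATG. The median step of the list from 3 to 6 h was -0.108, smaller than that of the NF-kB and cytokine list (-0.561). Of 26 tested genes of the list, 9 fell and 1 rose, against 6.06% and 13.8% of all genes, and the median late minus early difference was -0.27 against 0.12. Without the 6, 48 or 72 h library 4, 3 and 4 fell, and with median centring 13. Of all 11881 genes 206, 113 and 87 fell in those fits, and 1238 with median centring. The 250 bases before the start of CTGF, ANKRD1 and THBS1 are shown because they fell and hold this motif (RefSeq, GRCh38.p14, 5′ to 3′ on the gene's strand, capitals mark GGAATG):
CTGF (chr6:131951373-131951622, minus strand): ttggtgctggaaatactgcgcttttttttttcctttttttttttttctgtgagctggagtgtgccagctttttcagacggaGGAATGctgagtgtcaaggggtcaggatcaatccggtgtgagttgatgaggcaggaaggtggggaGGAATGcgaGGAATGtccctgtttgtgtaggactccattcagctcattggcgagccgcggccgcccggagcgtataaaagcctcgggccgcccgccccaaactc
ANKRD1 (chr10:90921088-90921337, minus strand): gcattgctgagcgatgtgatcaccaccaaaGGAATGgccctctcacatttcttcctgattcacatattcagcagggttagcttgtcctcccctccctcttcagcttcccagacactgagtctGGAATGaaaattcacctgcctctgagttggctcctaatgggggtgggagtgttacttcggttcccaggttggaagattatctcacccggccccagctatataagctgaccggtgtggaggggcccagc
THBS1 (chr15:39580829-39581078, plus strand): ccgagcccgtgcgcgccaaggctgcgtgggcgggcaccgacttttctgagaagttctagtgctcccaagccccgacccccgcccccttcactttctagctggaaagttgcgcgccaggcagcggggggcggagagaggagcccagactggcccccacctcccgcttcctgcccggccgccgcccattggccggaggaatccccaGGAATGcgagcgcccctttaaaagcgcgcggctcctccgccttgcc

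The motif, searched on both strands, was in 8 of the 20 tested list genes with such a window and in 11.9% of 35116 windows of the same length. CTGF, listed by RefSeq as CCN2, had 3 copies, ANKRD1 had 2 and THBS1 had 1. A match is a description of the letters and not a binding site. Here and for the motifs below, list genes count with 1 window each. The 35116 windows are not limited to tested genes and can hold more than 1 start of a gene.

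CTGF on chromosome 6, a secreted matricellular protein, was 54.93, 14.3, 8.9, 14.92, 8.78 and 9.45 RPKM. The 3 h library alone was high, and the other 5 overlapped, so that the slope of -0.42 ± 0.12 (adjusted p = 0.0407) did not pass without 3 h. ANKRD1 on chromosome 10, a nuclear ankyrin repeat protein, was 114.87, 36.41, 12.32, 14.15, 7.16 and 9.05 RPKM, and its slope of -0.76 ± 0.12 (adjusted p = 0.00896) passed without each library in turn. CYR61, a matricellular relative of CTGF, was 85.97, 47.64, 27.9, 34.94, 16.6 and 14.45 RPKM, and THBS1, thrombospondin, was 63.18, 47.07, 28.13, 30.19, 16.09 and 11.26. In CTGF, ANKRD1, CYR61 and THBS1 alike the 24 h value was above the 12 h value, and CYR61 and THBS1 passed without each library as well. TEAD4, one of the DNA-binding partners, was 13.41 RPKM at 3 h and 5.54 to 8.44 afterwards. IGFBP3, a binding protein of insulin-like growth factors, was level at 208.45 to 239.16 RPKM early and 100.26 to 141.76 late. AMOTL1, an angiomotin that holds YAP in the cytoplasm, was the list's only call upwards, at 1.28, 1.32, 1.58, 2.09, 2.02 and 2.4 RPKM. CTGF, IGFBP3, GADD45A, AMOTL1, TEAD4, AJUBA and MYOF lost their calls without at least 1 library (adjusted p up to 0.294).

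Immediate early factors, which answer growth signals within minutes, divided. Of 16 tested, 3 fell (18.8%, against 6.06% of all genes) and 0 rose, and without the 72 h library 1 fell. FOSL1, an AP-1 subunit, was 62.26, 58.89, 29.8, 36.38, 13.7 and 14.24 RPKM (slope -0.50 ± 0.07, adjusted p = 0.00804). JUN, its partner, was 78.26, 85.39, 64.41, 59.71, 28.02 and 25.43, and SRF, the factor of the serum response, was 14.76, 10.15, 8.67, 9.58, 6.57 and 4.77. JUN and SRF lost the call without the 72 h library (adjusted p up to 0.0599). The median difference of the list was 0.12, as for all genes, and turned to -0.02 with median centring. BTG2, IER5 and KLF10 had late values all above the early ones and did not pass the slope test (adjusted p 0.0974 to 0.265), and MYC was 50.19, 37.36, 36.3, 43.84, 34.51 and 28.47 RPKM (adjusted p = 0.089).

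**Figure D3:**
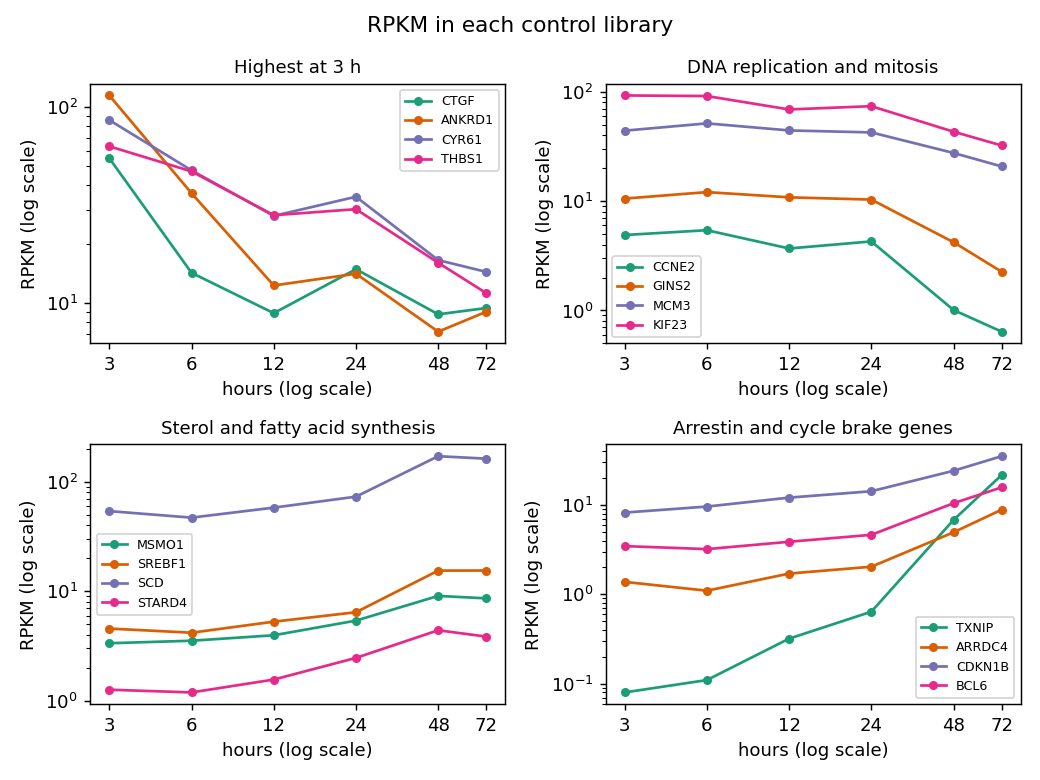
RPKM on a log axis against hours on a log axis in the 6 control libraries, 1 point per library, for 4 genes in each of 4 groups. CTGF and ANKRD1 drop mostly between 3 and 12 h, while GINS2 falls and TXNIP rises mostly after 24 h.

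Genes of DNA replication had their lowest values at 72 h in 40 of 42, against 2817 of all 11881 tested genes. Of 42 tested genes, 13 fell and 0 rose, and 38 had a negative late minus early difference, with a median of -0.44 on the log2 scale against 0.12 for all genes. In only 2 of the 42, GINS2 and MCM3, did all late values lie below the early ones, against 7.46% of all genes. The median of the list relative to each gene's own mean was 0.44 at 24 h, its highest point, and -0.88 at 72 h. The count rested on single libraries, with 0 called without the 6, 48 or 72 h library, 21 without 3 h and 30 without 24 h. The share of all genes that fell was 6.06%. With a slope on hours in place of log2 hours, 33 of the 42 fell and 0 rose, against 1278 and 2442 of all 11881 genes. Windows of GINS2 and MCM3 are shown because both fell with no overlap between late and early values and hold the E2F-type motif TTCCCGCC (RefSeq, GRCh38.p14, 5′ to 3′, capitals mark the motif on either strand):
GINS2 (chr16:85688955-85689204, minus strand): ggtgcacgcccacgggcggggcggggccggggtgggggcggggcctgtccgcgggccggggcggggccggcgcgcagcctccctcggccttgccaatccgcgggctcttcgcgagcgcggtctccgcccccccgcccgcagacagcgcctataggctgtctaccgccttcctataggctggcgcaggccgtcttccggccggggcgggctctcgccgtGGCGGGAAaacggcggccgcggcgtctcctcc
MCM3 (chr6:52284743-52284992, minus strand): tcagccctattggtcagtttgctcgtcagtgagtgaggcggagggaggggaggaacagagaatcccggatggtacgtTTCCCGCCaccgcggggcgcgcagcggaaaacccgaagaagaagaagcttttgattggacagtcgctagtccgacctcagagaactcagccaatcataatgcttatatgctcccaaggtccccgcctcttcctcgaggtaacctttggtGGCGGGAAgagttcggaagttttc

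The motif was in 9 of 37 tested list genes with a window and in 2.72% of the 35116 windows. MCM3 held 2 copies and GINS2 held 1.

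CCNE2, cyclin E2 of the G1 to S transition, was 4.9, 5.42, 3.69, 4.28, 1.01 and 0.64 RPKM, the steepest slope of those named here (-0.50 ± 0.10, adjusted p = 0.0146). GINS2, a part of the replicative helicase, was 10.55, 12.09, 10.83, 10.33, 4.21 and 2.26 RPKM, and its partner GINS1 was 24.4, 25.21, 20.9, 23.64, 11.99 and 8.18. The helicase subunit MCM3 was 44.09, 51.4, 44.3, 42.5, 27.57 and 20.76 RPKM (slope -0.24 ± 0.06, adjusted p = 0.0255). In each of CCNE2, GINS1, GINS2 and MCM3 the first 4 libraries lay close together and the last 2 were lower. RRM2, which makes deoxyribonucleotides, was highest at 24 h, at 50.15, 63.28, 40.19, 70.41, 18.5 and 8.53 RPKM, and CDC6, a licensing factor with the same 24 h maximum of 26.53 and 7.04 RPKM at 72 h, missed the threshold (adjusted p = 0.0517). The DNA ligase LIG1 and the chromatin assembly subunit CHAF1A fell as well. None of the 8 named calls of this list was kept without the 6, 48 or 72 h library (adjusted p up to 0.239).

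Mitosis genes followed the same course with fewer calls. Of 38 tested, 4 fell (10.5%, against 6.06% of all genes) and 0 rose, and 33 had a negative difference. All late values lay below the early ones in 0 of them, against 7.46% of all genes. The median of -0.30 became 0.01 without the 72 h library. The number that fell was 16 without 3 h, 13 without 24 h, 2 without 6, 12 or 48 h and 0 without 72 h. With a slope on hours in place of log2 hours, 26 fell and 1 rose, against 1278 and 2442 of all 11881 genes. The window of KIF23 is shown because it had a steep slope in this list and carries both motifs of mitotic promoters, the CCAAT box and the element TTTGAA (RefSeq, GRCh38.p14, 5′ to 3′, capitals mark both motifs on either strand):
KIF23 (chr15:69414099-69414348, plus strand): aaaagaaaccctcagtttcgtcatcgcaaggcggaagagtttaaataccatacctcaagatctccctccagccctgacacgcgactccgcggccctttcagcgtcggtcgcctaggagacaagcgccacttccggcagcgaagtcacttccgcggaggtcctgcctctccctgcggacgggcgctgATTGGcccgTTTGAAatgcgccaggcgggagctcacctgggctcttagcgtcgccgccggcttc

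Both motifs together were in 15 of 32 tested mitosis genes with a window and in 4.69% of the 35116 windows. TTTGAA alone was in 17 of the 32 and in 13.3% of windows, and CCAAT in 24 of the 32 and in 32% of windows.

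KIF23, a kinesin of the central spindle, was 92.56, 91.4, 68.92, 73.83, 43.13 and 32.27 RPKM (slope -0.32 ± 0.06, adjusted p = 0.0108). UBE2C, a ubiquitin conjugase of the anaphase-promoting complex, was 20.14, 18.63, 14.8, 15.16, 9.71 and 6.55. The survivin gene BIRC5 and the kinetochore gene NDC80 fell by slopes whose adjusted p was 0.0495 and 0.0497. MKI67, the proliferation antigen, was 48.6, 65.88, 52.18, 57.23, 32.36 and 22.77 RPKM and did not pass (adjusted p = 0.0533), and cyclin A2, CCNA2, did not either (0.0615). CDC25B, a phosphatase that starts mitosis, went against the list at 51.41, 37.77, 42.03, 47.89, 66.55 and 70.6 RPKM, without passing (0.0916). KIF23, UBE2C, BIRC5 and NDC80 all lost the call without 72 h (adjusted p up to 0.287).

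The regulators around this cycle moved unevenly. CDKN1B on chromosome 12, the cyclin-dependent kinase inhibitor p27, was 8.23, 9.61, 12.1, 14.26, 24.17 and 35.18 RPKM, higher at each step, with a slope of 0.43 ± 0.05 (adjusted p = 0.0065) that passed without each library in turn. RBL2, the pocket protein p130 that represses cycle genes in resting cells, was 10.18, 11.07, 11.47, 16.19, 17.77 and 19.73. Both brakes thus had late values above every early value. CDKN1A, the inhibitor p21, was 40.35, 48.18, 31.87, 43.24, 60.33 and 56.88 RPKM and did not pass (adjusted p = 0.181). On the driving side E2F1 was 16.05, 15.65, 12.47, 14.62, 7.42 and 4.07 RPKM, MYBL2, the MYB factor of the mitotic genes, was 51.12, 53.74, 46.17, 49.06, 26.34 and 12.87, and CDK6 was 15.97, 14.51, 13.62, 13.39, 11.03 and 9.48. E2F1, MYBL2 and CDK6 fell, and cyclin D1, CCND1, at 63.93, 69.74, 47.19, 65.95, 50.86 and 47.62 RPKM, did not pass (0.208). Of 19 tested cyclins, kinases, inhibitors and E2F genes 2 rose (10.5%) and 3 fell (15.8%), against 13.8% and 6.06% of all genes. Without the 6, 48 or 72 h library 2, 2 and 1 rose and 0 fell. The list's median of -0.13 became 0.01 without 72 h. RBL2, MYBL2, CDK6 and E2F1 lost the call without at least 1 library (adjusted p up to 0.156).

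Histone genes of the clusters are mostly without poly(A) tails and only 11 of 54 passed the filter in this polyadenylated RNA. Of these 4 fell (36.4%, against 6.06% of all genes) and 0 rose, and 0, 2 and 0 fell without the 6, 48 and 72 h libraries. The linker histone HIST1H1C was 33.77, 34.12, 26, 27.7, 19.15 and 13.19 RPKM, and HIST2H2BE was 2.12, 2.5, 1.44, 1.35, 0.94 and 0.4. HIST1H2BN ran the other way, with all late values above the early ones, and did not pass (adjusted p = 0.098). Histone genes are near copies of each other, so reads can be split between them and single values are uncertain.

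Ribosome biogenesis proteins act in the nucleolus, process ribosomal RNA and are driven by MYC and growth signalling. Of 40 tested genes 15 fell (37.5%, against 6.06% of all genes) and 0 rose, 15 had all late values below the early ones (7.46% of all genes), and the median difference was -0.26. The calls numbered 3, 4 and 0 without the 6, 48 and 72 h libraries. NOP56, a core protein of the methylation snoRNPs, was 335.66, 350.01, 276.43, 245.68, 168.55 and 129.51 RPKM (slope -0.30 ± 0.05, adjusted p = 0.00979), and NOP58, its partner, was 214.53, 276.3, 213.37, 183.49, 138.91 and 137.73. PES1, of the large subunit pathway, was 62.86, 70.52 and 65.02 RPKM early and 44.66, 40.34 and 32.03 late. NOP56, NOP58 and PES1 were below all their early values at 24 h. NCL, the abundant nucleolin, was 745.88, 874.55, 782.69, 695.32, 537.68 and 474.84. NOP16, LYAR and GNL2 fell with late values below all early ones, and the 7 named calls were all lost without 72 h (adjusted p up to 0.209).

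In polyamine and MYC-linked metabolism the steepest slope of the named genes was that of the enzyme that breaks polyamines down. SAT1 on chromosome X, spermidine/spermine acetyltransferase, was 456.57, 423.89, 557.67, 500.82, 1134.5 and 2067.62 RPKM, with the 24 h value inside the early range and the last 2 above it (slope 0.44 ± 0.10, adjusted p = 0.0179). The synthases went the other way, with SMS at 302.46, 244.43, 231.91, 229.39, 157.03 and 132.03 RPKM and SRM at 38.87, 38.22, 40.31, 35.64, 21 and 15.72. Both fell, as did NME1, a nucleotide kinase. ODC1, the first enzyme of the pathway, was 71, 88.02, 63.97, 89.76, 44.95 and 28.37 RPKM and did not pass (adjusted p = 0.064). Of 14 tested genes 1 rose (7.14%) and 3 fell (21.4%), against 13.8% and 6.06% of all genes. Without 48 or 72 h 0 were called in either direction (adjusted p of the named calls up to 0.263).

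Glycolysis and hypoxia genes are in large part targets of the hypoxia-inducible factor. Of 34 tested 8 fell (23.5%, against 6.06% of all genes) and 0 rose, and the late minus early difference was negative in 20 and positive in 14. Without the 6, 48 and 72 h libraries 2, 1 and 1 fell, and without 24 h 13. ENO1, enolase, was 829.11, 706.83, 678.22, 618.96, 457.49 and 348.94 RPKM (slope -0.25 ± 0.05, adjusted p = 0.0118). LDHA, lactate dehydrogenase, was 786.76, 780.6, 755.59, 820.75, 498.35 and 382.74, and the glucose transporter SLC2A1 was 31.97, 36.19, 26.74, 28.44, 16 and 10.29. LDHA and SLC2A1 held to 24 h, whereas ENO1 was lower at each step. CA9, the membrane carbonic anhydrase that marks hypoxia, was 8.96, 9.88, 8.83, 7.98, 3.96 and 2.02 RPKM. ADM, the secreted peptide adrenomedullin, moved earlier, at 98.21, 79.69, 47.65, 46.85, 38.1 and 33.64, and was the one call of the 8 kept without each library. GAPDH, often used as a level control, was 1643.9, 1711.5, 1634.46, 1703.16, 1250.76 and 872.85 RPKM and did not pass (adjusted p = 0.0678). PDK1, VEGFA and GPI fell, and EGLN1, the prolyl hydroxylase that marks the factor for decay, had late values all above the early ones without passing (0.0509). The calls other than ADM were lost without at least 1 library (adjusted p up to 0.263). The list's median was -0.11 as deposited.

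Of the sterol and fatty acid genes, 20 of 32 had their highest value at 72 h, against 28.4% of all genes. SREBP factors act on this set when membrane sterol is low. Of 32 tested genes 18 rose and 1 fell, against 13.8% and 6.06% of all genes, 30 had a positive difference, and the median was 0.55 against 0.12, or 0.40 after median centring. Without the 6, 48 or 72 h library 10, 7 and 4 rose. MSMO1, a demethylase of the pathway, was 3.35, 3.53, 3.96, 5.39, 9.06 and 8.61, and STARD4, a carrier of cholesterol, was 1.26, 1.19, 1.56, 2.46, 4.4 and 3.85. MSMO1 and STARD4 passed without each library in turn. SREBF1, the gene of the SREBP-1 factor, was 4.56, 4.18, 5.27, 6.43, 15.43 and 15.46 RPKM, and SCD, which desaturates stearate, was 53.95, 47.03, 58.04, 73.11, 171.25 and 162.55. SREBF1 and SCD rose mainly in the step from 24 to 48 h and were level after it. FASN, fatty acid synthase, was level at 10.35 to 11.4 RPKM to 24 h and then 16.78 and 19.02. DHCR7, CYP51A1 and ACACA rose too, and EBP, an isomerase of the sterol pathway, fell, at 100.16, 68.97, 82.76, 57.53, 60.09 and 57.56 RPKM. Calls of this list other than MSMO1 and STARD4 among those named were lost without at least 1 library (adjusted p up to 0.196).

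Cholesterol export was less marked. Of 7 tested genes 1 rose, MYLIP, the ligase that degrades the LDL receptor, at 0.45, 0.38, 0.68, 0.57, 2.04 and 2.04 RPKM (slope 0.35 ± 0.08, adjusted p = 0.0204), and it was lost without the 6, 48 or 72 h library (up to 0.107). That share of 14.3% is near the 13.8% of all genes, and all 7 had a positive difference. The exporter ABCA1 was 0.89, 0.63, 0.83, 1.03, 2.22 and 1.56 RPKM and NPC1, of the late endosome, was 9.68, 8.15, 8.14, 13.72, 12.52 and 13.79; their late values lay above the early ones and the slopes did not pass (0.0592 and 0.069).

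Genes linked to FOXO factors and resting cells moved in 1 direction. Of 26 tested 15 rose (57.7%, against 13.8% of all genes) and 0 fell. A positive difference was found in 26 of 26, and the median was 0.69 against 0.12 for all genes. Without the 6, 48 or 72 h library 9, 9 and 4 rose. The windows of TXNIP and ARRDC4, related arrestin genes that rose, are shown for the forkhead motif GTAAACA in the first, the E-box CACGTG in the second and the CCAAT boxes in both (RefSeq, GRCh38.p14, 5′ to 3′, capitals mark these motifs on either strand; TXNIP has 2 starts in the table and the first is shown):
TXNIP (chr1:145996580-145996829, minus strand): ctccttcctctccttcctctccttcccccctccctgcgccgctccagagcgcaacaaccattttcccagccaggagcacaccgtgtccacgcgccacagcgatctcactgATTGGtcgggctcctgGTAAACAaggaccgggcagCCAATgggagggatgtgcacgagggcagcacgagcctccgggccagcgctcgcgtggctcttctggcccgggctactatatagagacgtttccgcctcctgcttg
ARRDC4 (chr15:97960453-97960702, plus strand): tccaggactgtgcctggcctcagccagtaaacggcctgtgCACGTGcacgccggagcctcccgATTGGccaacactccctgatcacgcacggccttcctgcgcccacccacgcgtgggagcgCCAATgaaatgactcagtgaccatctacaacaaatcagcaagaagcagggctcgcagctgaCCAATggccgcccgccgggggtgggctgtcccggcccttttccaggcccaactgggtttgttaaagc

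GTAAACA was in 2.98% and CACGTG in 6.34% of the 35116 windows, and in 1 and 4 of the 23 tested list genes with a window.

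ARRDC4 on chromosome 15 was 1.38, 1.1, 1.71, 2.04, 4.95 and 8.87 RPKM (slope 0.51 ± 0.09, adjusted p = 0.0112), and its relative ARRDC3 was 19.95, 20.08, 24.21, 24.91, 29.35 and 36.03. Set beside TXNIP, whose values are given above, ARRDC4 had the same order of times after 6 h with a smaller range. BCL6, a transcriptional repressor, was 3.47, 3.21, 3.88, 4.64, 10.48 and 15.77 RPKM, and MXI1, which competes with MYC for its partner MAX, was 3.36, 2.94, 4.3, 4.9, 7.21 and 8.79. YPEL2, of the yippee family, was 0.42, 0.59, 1.4, 1.38, 3.21 and 2.97, a course that began between 6 and 12 h. TSC22D3, the glucocorticoid-induced leucine zipper, was 14.85, 9.35, 12.16, 14.43, 43.18 and 42.88 RPKM, nearly all of it in the step after 24 h. PINK1, the kinase of mitochondrial quality control, was 9.2, 9.9, 11.21, 13.63, 16.93 and 17.38, and YPEL5 rose as well. TXNIP, CDKN1B and YPEL2 kept the call without each library, and the other named ones lost it without at least 1 (adjusted p up to 0.12).

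**Figure D4:**
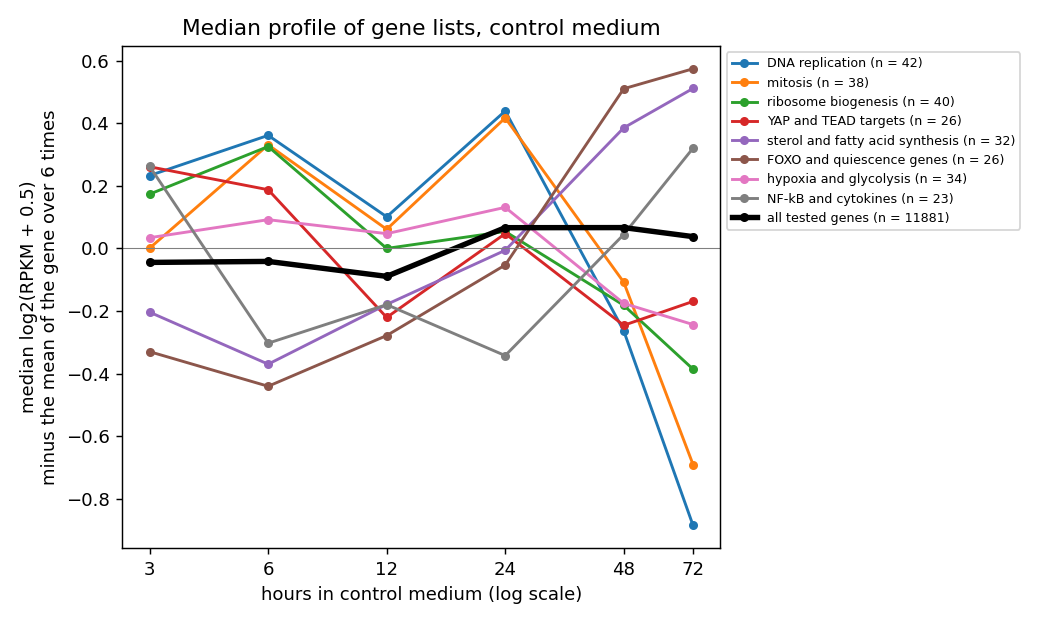
Median over the tested members of each list of log2(RPKM + 0.5) minus the mean of the gene over the 6 times, against hours on a log axis; the black line is all 11881 genes. DNA replication is highest at 24 h (0.44) and lowest at 72 h (-0.88), and the FOXO and quiescence list ends at 0.57.

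Feedback genes of the MAP kinase pathway are switched on when ERK is active. Of 16 tested 4 rose (25%, against 13.8% of all genes) and 0 fell, 14 had a positive difference, and 8 had all late values above the early ones (27.2% of all genes). Without the 6, 48 or 72 h library 2, 1 and 2 rose. Beside PHLDA1, the ETS factor ETV4 was 2.66, 3.36, 2.11, 4.24, 8.25 and 9.22 RPKM (slope 0.37 ± 0.08, adjusted p = 0.0192). DUSP4, a phosphatase that switches off ERK in the nucleus, was 29.73, 28.95, 28.15, 42.24, 48.82 and 47.77, and its cytoplasmic relative DUSP6 was 2.92, 2.45, 2.39, 3.2, 5.28 and 4.9. PHLDA1 and DUSP4 were higher already at 24 h. ETV5 and DUSP1 had late values above the early ones and did not pass (0.0571 and 0.0787). ETV4, DUSP4 and DUSP6 lost the call without at least 1 library (adjusted p up to 0.169).

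NF-kB targets and cytokines were U-shaped as a list, with the median relative to each gene's mean at 0.26 at 3 h, between -0.34 and -0.18 at 6 to 24 h, and 0.32 at 72 h. Of 23 tested 4 rose (17.4%, near the 13.8% of all genes) and 1 fell, and 7 rose without 3 h and 0 without 6, 48 or 72 h; the median difference of 0.14 turned to -0.01 with median centring. CCL2, the monocyte attractant, was 85.28, 20.67, 23.29, 12.63, 11.39 and 25.18 RPKM, highest at 3 h, and did not pass (adjusted p = 0.0809). IL8, the neutrophil attractant now named CXCL8, was 59.7, 37.59, 45.06, 53.56, 101.95 and 146.02 and rose (slope 0.32 ± 0.09, adjusted p = 0.0422). PTGS2, the inducible cyclooxygenase, was 5.71, 2.85, 2.76, 2.76, 16.39 and 30.24 RPKM with no pass (0.0759). The 3 genes therefore had their lowest values between 6 and 48 h. The pathway's inhibitors NFKBIA, at 53.98, 65.73, 74.11, 61.73, 103.83 and 119.94 RPKM, and TNFAIP3 rose, as did NFKBIZ. CLCF1, an IL-6 family cytokine, fell at 22.5, 21.33, 17.25, 15.76, 5.34 and 8.19, and was the one call of the 5 kept without each library (the others up to 0.222).

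Acute phase and STAT3 pathway genes, read as 1 list, rose in 5 of 21 tested (23.8%, against 13.8% of all genes) and fell in 0. Acute phase proteins are liver-type secreted proteins that A549 also makes. The list also holds genes of other kinds, among them the called OSMR and PIM2. Without 6, 48 or 72 h 1, 0 and 0 rose, without 3 h 8, and with median centring 1. The complement gene C3 was 183.72, 146.6, 197.85, 170.92, 266.4 and 362.83 RPKM (slope 0.21 ± 0.06, adjusted p = 0.0448), and ceruloplasmin, CP, was 12.28, 8.97, 18.54, 12.16, 24.84 and 41.33. The fibrinogen chain FGG peaked at 48 h, at 29.1, 22.08, 34.8, 38.93, 82.44 and 45.01, and its partner FGA had the same course without passing (0.0581). SAA1, serum amyloid A, lay the other way at 90.21, 44.49, 77.09, 28.47, 30.97 and 39.32 RPKM (0.0598), and OSMR and PIM2 rose. SAA1 has a near-identical copy and its reads may be shared. The 5 calls were all lost without 48 or 72 h (adjusted p up to 0.253).

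Interferon-stimulated genes moved in both directions. Of 25 tested 4 rose and 3 fell, with 16% rising near the 13.8% of all genes and 12% falling against 6.06%. Without 3 h 8 rose and 1 fell. HERC5, the ISG15 ligase, was 1.45, 1.79, 1.27, 2.44, 4.37 and 4.84 RPKM (slope 0.34 ± 0.07, adjusted p = 0.0159), and IFI44 was 4.83, 5.7, 7, 7.8, 8.9 and 8.5. IFIT2 and STAT2 rose, while HERC6, a relative of HERC5, fell at 3.16, 2.66, 2.62, 2.67, 1.82 and 1.28, with OAS3 and IFI35. Without the 48 or 72 h library 0 were called in either direction (named calls up to 0.196).

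The study's title concerns the epithelial to mesenchymal transition, so both marker sets were read in the control cells alone. Of 22 tested epithelial junction genes 8 rose (36.4%, against 13.8% of all genes; 5 with median centring) and 2 fell, with a median of 0.37, and without the 6, 48 or 72 h library 2, 1 and 0 rose. CDH1, E-cadherin of the adherens junction, was 10.01, 4.82, 6.63, 4.68, 12.26 and 23.58 RPKM, highest at 72 h, and did not pass (adjusted p = 0.192). EPCAM, the epithelial adhesion molecule, was 0.24, 0.34, 0.85, 0.67, 2.5 and 3.3 RPKM (slope 0.51 ± 0.08, adjusted p = 0.00896). F11R, a tight junction protein, was 5.93, 4.05, 5.65, 7.75, 13.42 and 17.33, and CLDN2, a pore-forming claudin, was 3.03, 2.09, 2.91, 2.31, 6.44 and 21.89. As with KRT19, CLDN2 owed most of its difference to 72 h. The plaque genes JUP and DSP, the junction gene OCLN and the protease inhibitor SPINT2 rose. MUC1, a membrane mucin, fell at 6.39, 5.02, 4.97, 3.96, 2.91 and 1.75 RPKM, as did PKP3, a plakophilin. The 10 named calls were all lost without the 72 h library (adjusted p up to 0.265).

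Mesenchymal genes divided, with 6 of 22 rising (27.3%) and 4 falling (18.2%), against 13.8% and 6.06% of all genes. Their median of 0.09 turned to -0.06 with median centring. VIM, vimentin, the intermediate filament of mesenchymal cells, was 450.87, 458.9, 402.18, 572.85, 445.17 and 307.64 RPKM and did not pass (adjusted p = 0.473). FN1 on chromosome 2, fibronectin, was 97.86, 87.69, 128.34, 108.59, 202.55 and 324.84 RPKM (slope 0.35 ± 0.08, adjusted p = 0.0173). SPARC, a matrix glycoprotein, was 4.52, 2.86, 5.92, 3.72, 18.53 and 19.95, and the gelatinase MMP2 was 2.31, 2.07, 2.16, 2.51, 7.16 and 4.63. ITGA5, a chain of the fibronectin receptor, WNT5A and CDH11 rose as well. On the falling side CDH2, N-cadherin, was 105.05, 86.43, 103.31, 79.26, 72.31 and 63.96 RPKM, and THBS1 and S100A4 fell as well. Without the 6, 48 or 72 h library 1 rose and 1 fell in each case. ITGA5 and THBS1 kept the call without each library, and the others named lost it (adjusted p up to 0.362). As given above, the summed fibroblast markers were also higher late (4.42 to 7.49 against 3.52 to 4.16 RPKM). FAP was the highest of them at 2.11 to 4.09 RPKM, and THY1 went from 0.12 to 1.18. COL1A2, COL3A1, PDGFRB and POSTN reached at most 0.16. The part of fibroblast markers in these values was not tested.

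Basement membrane and collagen genes rose in 8 of 29 tested (27.6%, against 13.8% of all genes) and fell in 0. With median centring 6 rose, and without the 6, 48 and 72 h libraries 1, 0 and 0. LAMB1, a laminin chain, was 116.37, 120.54, 138.27, 137.37, 211.87 and 254.7 RPKM (slope 0.24 ± 0.05, adjusted p = 0.0139), and NID1, nidogen, which links laminin to collagen IV, was 3.95, 4.11, 4.54, 5.16, 10.5 and 11.7. LAMA5, COL4A5, COL13A1 and COL1A1 rose, COL1A1 from a low level of 1.37 to 2.89 RPKM early to 2.45 to 4.27 late. COL4A1, the main chain of collagen IV, was 22.3, 22.52 and 27.27 RPKM early and 20.07, 15.52 and 15.71 late, and did not pass (0.0806). The 6 named calls were lost without 48 or 72 h (adjusted p up to 0.139). Of 11 tested integrin and adhesion genes 3 rose (27.3%, against 13.8% of all genes) and 0 fell, and 11 of 11 had a positive difference. ITGA2, a collagen receptor chain, was 2.07, 2.71, 2.96, 4.43, 5.6 and 5.87 RPKM and passed without each library, whereas ITGB4 and CD44 did not (up to 0.161).

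In the TGF-beta and BMP pathway 8 of 25 tested genes rose (32%, against 13.8% of all genes; 5 with median centring) and 1 fell, and 1 rose in each case without the 6, 48 or 72 h library. TGFBR2 on chromosome 3, the ligand-binding receptor, was 19.45, 20.4 and 21.72 RPKM early and 37.36, 49.68 and 42.96 late (slope 0.31 ± 0.05, adjusted p = 0.0102), and it alone of those named passed without each library. The ligand BMP2 was 3.33, 2.71, 3.48, 3.94, 5.97 and 5.92, and the signal carrier SMAD2 was 5.97, 5.9, 5.41, 7.21, 10.61 and 13.27. The BMP target ID1, a dominant-negative helix-loop-helix factor, was 71.96, 49.95, 72.37, 77.71, 164.12 and 129.67 RPKM, and ID2 rose with it. SMAD7, the pathway's own inhibitor, fell at 13.27, 11.66, 9.52, 10.3, 8.84 and 8.29. LTBP1, which stores latent TGF-beta in the matrix, rose. All of these but TGFBR2 lost the call without at least 1 library (adjusted p up to 0.163).

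Stress pathways gave single genes rather than lists. Of 29 tested ATF4-linked genes 2 rose (6.9%) and 4 fell (13.8%), against 13.8% and 6.06% of all genes. ATF5, a factor induced by translational stress, was 32.53, 26.41, 18.97, 14.58, 7.77 and 6.1 RPKM, and PPP1R15A, which restores translation, was 50.7, 42.33, 31.51, 22.05, 23.22 and 22.98. The amino acid transporters SLC7A5 and SLC7A1 fell, while CEBPB rose at 40.04, 34.77, 46.32, 57.76, 100.72 and 83.44 and VLDLR rose. TRIB3 and SHMT2 were highest at 48 h, at 4.95 and 21.72 RPKM, and did not pass (0.0509 and 0.051). ATF5, PPP1R15A and CEBPB kept the call without each library, and VLDLR, SLC7A5 and SLC7A1 lost it (up to 0.187). Of 29 tested p53 targets 3 rose (10.3%) and 1 fell (3.45%). TP53INP1, RRM2B and the apoptosis gene BBC3 rose, and TP53I3, a quinone reductase, fell at 54.5, 49.51, 52.96, 42.6, 23.34 and 13.96 RPKM. These 4 were lost without at least 1 library (up to 0.128). Of 25 tested NRF2 and NADPH genes 1 rose (4%) and 4 fell (16%). OSGIN1 was 6.58, 3.79, 2.19, 2.48, 1.21 and 1.02 RPKM and kept the call, whereas FTL, ferritin light chain, at 884.04 RPKM at 3 h and 334.45 at 72 h, TALDO1 and the aldo-keto reductase AKR1B1, which rose, did not (up to 0.185).

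Of 20 tested clock genes 5 rose (25%, against 13.8% of all genes) and 1 fell, and 1 rose in each case without the 6, 48 or 72 h library and 8 without 3 h. NR1D1, the repressor REV-ERB alpha, was 0.79, 0.59, 0.68, 1.02, 2.48 and 3.33 RPKM (slope 0.37 ± 0.08, adjusted p = 0.0194), and DBP, an output factor of the clock, was 1.01, 0.67, 0.6, 1.1, 3.16 and 3.54. NFIL3, RORA and CSNK1E rose and the repressor CRY1 fell, at 14.93, 13.09, 7.21, 10.21, 7.34 and 7.7. The 6 times cannot show a daily rhythm, and all 6 calls were lost without 72 h (up to 0.158). Of 18 tested aldehyde and retinoid genes 7 rose (38.9%, against 13.8% of all genes) and 1 fell, with 2, 1 and 1 rising without 6, 48 and 72 h. CYP24A1 on chromosome 20, the enzyme that inactivates vitamin D, was 166.8, 139.1, 216.63, 267.73, 436.46 and 571.67 RPKM (slope 0.42 ± 0.06, adjusted p = 0.00804) and kept the call without each library. The receptors RARB and RARG rose, and the detoxifying ALDH1A1, among the highest genes of the line, rose from 3146.93 RPKM at 3 h to 4767.98 at 72 h; these, ALDH2 and ALDH1B1, which fell, lost the call without at least 1 library (up to 0.17). Of 29 tested lysosome and autophagy genes 6 rose, among them CTSB, WIPI1, PSAP, ULK1 and LAMP2, and 0 fell. This share of 20.7% is near the 13.8% of all genes, and 0 rose without 6, 48 or 72 h (up to 0.132), 11 without 3 h and 10 without 24 h. The protease cathepsin B, CTSB, was 34.99, 34.87, 37.05, 38.41, 64.3 and 71 RPKM.

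Iron and secretory pathway genes were mixed. Of 10 tested iron genes 3 rose (30%, against 13.8% of all genes) and 1 (FTL) fell (10%, against 6.06%). Their median of 0.07 turned to -0.07 with median centring. The exporter SLC40A1, ferroportin, was 1.31, 1.16, 1.38, 1.85, 3.15 and 4.09 RPKM (slope 0.31 ± 0.06, adjusted p = 0.0133), and SLC11A2 and ACO1 rose with it, each lost without 48 or 72 h (up to 0.218). Of 22 tested chaperone and stress response genes of the endoplasmic reticulum 2 rose and 2 fell (9.09% each). Their median of 0.04 turned to -0.10 with median centring. DNAJB9 was 6.27, 8.11, 10.04, 11.21, 13.1 and 17.47 RPKM, higher at each step and kept without each library, and CALR, calreticulin, was 971.86, 979.37 and 970.48 early and 705.27, 677.39 and 570.11 late. CREB3L2 rose and PDIA3 fell, both lost without at least 1 library, as CALR was (up to 0.132). Of 16 tested heat shock genes 0 passed (unadjusted p under 0.05 in the group test in 2), and the most abundant, HSP90AA1 and HSPA8, had their maximum at 12 h, at 1538.3 and 1235.69 RPKM, and their minimum at 72 h, at 680.89 and 475.1 (0.115 and 0.152).

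**Figure D5:**
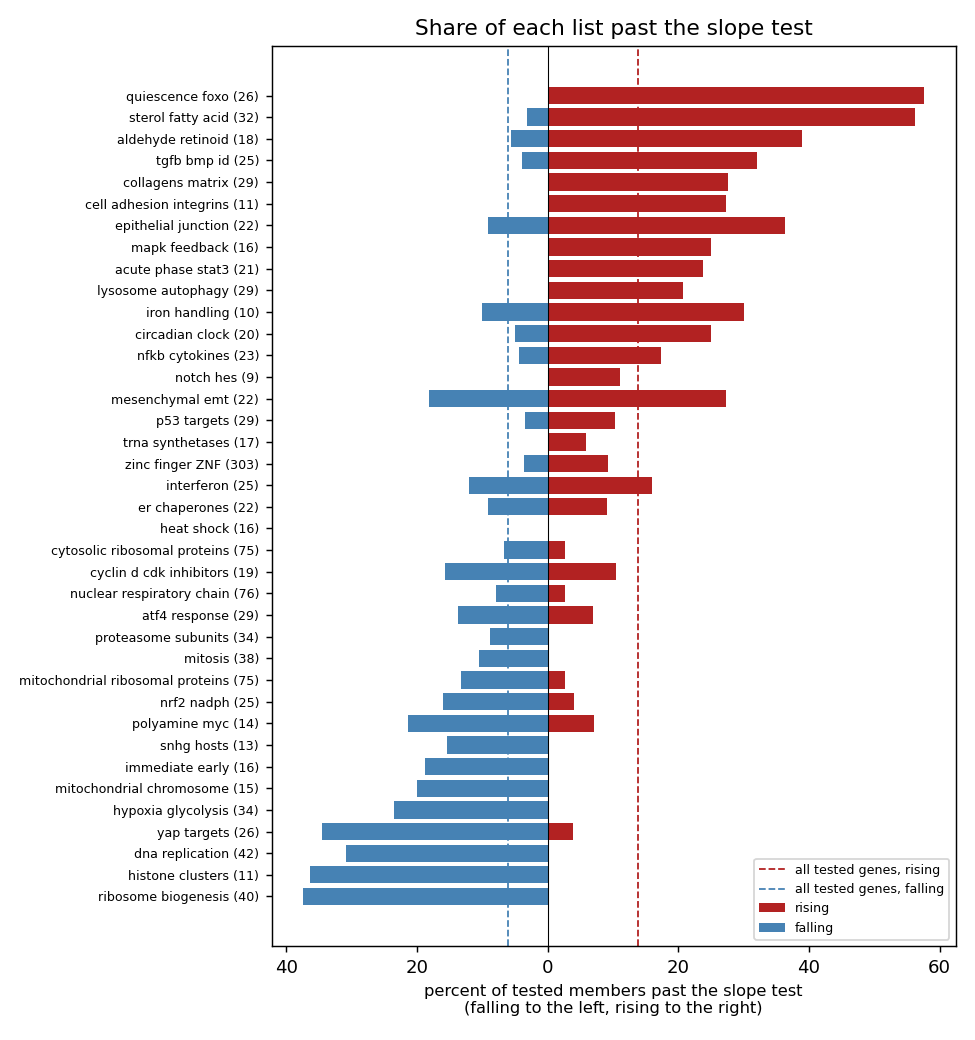
Percent of the tested members of each list that passed the slope test, rising to the right in red and falling to the left in blue, with the number tested in brackets; dashed lines are all tested genes (13.8% rising and 6.06% falling). The FOXO and quiescence list and the sterol and fatty acid list reach furthest to the right, and ribosome biogenesis furthest to the left.

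The cytosolic ribosomal and respiratory chain lists went up and down between neighbouring times. The median of 75 cytosolic ribosomal protein genes relative to each gene's mean was 0.18, -0.15, 0.07, -0.16, 0.08 and -0.04 from 3 to 72 h. Of the 75, 2 rose (2.67%) and 5 fell (6.67%), against 13.8% and 6.06% of all genes. The median difference of -0.08 turned to 0.05 under quantile normalization. Short gene models moved alike, in a class from which members of these lists were not removed. In the 631 tested genes under 1000 bases the median step was -0.219 from 3 to 6 h, 0.0708 from 6 to 12 h and -0.0595 from 12 to 24 h. It was 0.134 from 24 to 48 h and -0.0453 from 48 to 72 h. Length moved with these swings and with the share of calls. Under 1000 bases 10.3% of genes rose and 14.7% fell, and at 1000 to 2000 bases 11.2% and 9.41%. At 2000 to 4000 bases it was 13.8% and 6.7%, and from 4000 bases 15.2% and 3.18%. The part of length in the swings and in the counts of any list was not tested. RPS26 fell, at 150.13, 157.84, 151.71, 120.81, 81 and 62.15 RPKM, RPL24 was 3473.8 at 3 h and 1376.4 to 2433.35 at the other times, and RPL30 rose; ribosomal protein genes have many processed copies and their reads are uncertain. Of 76 nuclear respiratory chain genes 2 rose (2.63%) and 6 fell (7.9%). Their median relative to each gene's mean was 0.19, -0.16, -0.06, -0.09, 0.11 and -0.02 from 3 to 72 h. CYCS, cytochrome c, was 56.17, 51.51, 49.46, 40.9, 30.12 and 27.16 RPKM (slope -0.23 ± 0.04, adjusted p = 0.0102), NDUFA6 and ATP5J fell, and UQCRC1 and UQCRC2, the core subunits of complex III, rose. Of 75 mitochondrial ribosomal proteins 2 rose and 10 fell (13.3%, against 6.06% of all genes and the larger shares of short ones above). MRPL23 fell most, at 97.32, 80.74, 83.04, 57.95, 54.04 and 32.68. Of 34 proteasome subunits 3 fell (8.82%), with PSMB10, a subunit of the immunoproteasome, at 11.2, 6.41, 6.88, 3.52, 3.04 and 2.84 RPKM and PSMC3 among them. PSMB10 alone of the genes named here kept the call without each library (the others up to 0.23). Without the 72 h library 0 cytosolic ribosomal, 0 mitochondrial ribosomal and 0 respiratory genes and 1 proteasome gene were called. Of the 15 tested genes of the mitochondrial chromosome 3 fell (20%) and 0 rose. With gene models of at least 400 bases only, 8 of them were tested and 0 fell. Of 13 host genes of small nucleolar RNAs 2 fell (15.4%) and 0 rose. Of 17 cytosolic tRNA synthetases 1 rose (5.88%) and of 9 Notch pathway genes 1 rose (11.1%). Zinc finger genes named ZNF, mostly repressors with few known roles, rose in 28 of 303 and fell in 11, both below the shares of all genes, and with median centring 19 rose and 24 fell. The smallest p was that of ZNF277 at 5.43, 6.76, 7.68, 10.16, 17.15 and 21.45 RPKM.

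Each time also had genes that were highest there alone; they were chosen by the gap to the next highest time, so the gap is a description with no test, as each time is 1 library. CTGF, CCL2 and ANKRD1 led at 3 h, with values given above. At 6 h MIR503HG was 17.35 RPKM against 8.93 to 10.95 elsewhere, MARCH4, a membrane ubiquitin ligase, was 4.96 against 0.6 to 3.12, and CCDC74A was 2.51 against 0.75 to 1.51. The neuropeptide gene NPFF at 3.2 RPKM, TSPAN1 at 3.37 and LOC645249 at 9.48 led at 12 h. At 24 h NT5E, the nucleotidase CD73, was 33.6 RPKM against 11.45 to 19.6, the serpin SERPINB11 was 2.64 against 0.48 to 1.32 and the ion channel TRPA1 was 1.95 against 0.59 to 1.06. The 48 h library led for SDS, serine dehydratase, at 5.07 RPKM, for FGG at 82.44 and for CBS, cystathionine beta-synthase, at 11.72 against 2.72 to 6.29. KRT19, PIP, a secreted prolactin-inducible protein, and RBP4, the plasma retinol carrier, led at 72 h, PIP at 12.86 RPKM against 1.08 to 2.45 and RBP4 at 4.94 against 0.38 to 0.95. The gaps were widest at 3 and 72 h, 1.85 on the log2 scale for CTGF and 2.29 for KRT19, and no more than 0.902 for those named at 6 to 48 h. A maximum fell at 72 h in 3374 genes (28.4%), at 24 h in 2683 (22.6%), at 48 h in 2104 (17.7%), at 3 h in 1853 (15.6%), at 6 h in 1380 (11.6%) and at 12 h in 487 (4.1%).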

How the data were processed

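RNA was measured in 24 libraries, of which the 6 mRNA libraries of A549 in control medium were used, grouped by the time in their labels. The authors deposited 1 table of RPKM (reads scaled to gene model length and mapped reads, 2 decimals) with gene model lengths; TopHat2, edgeR and the build hg19 were used per the submitters' processing notes, with no versions. Library preparation was directional per the labels' protocols, but how reads were counted and by strand or not, against which annotation, and how replicates were joined is not given in the sources used here, so overlapping, antisense and near-identical genes can share reads. The other 6 value columns of the table, from CAF medium, were not used. RPKM keep no total, so depth was worked out from whole-read steps in gene models under 400 bases (100% whole within 0.1 read in 61 to 95 values per library).

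Tests covered genes averaging 1 RPKM or more, on log2(RPKM + 0.5), a scale that understates changes of low genes, with limma 3.58.1 (two-sided moderated test with a mean-variance trend, 4 residual degrees of freedom) in R 4.3.3, adjusted by Benjamini-Hochberg over 11881 genes at 0.05. The late against early fit was checked on simulated data with a level step between the groups. The slope fit was not checked in this way. The genes named were, by rule, the 12 largest differences each way without overlap, up to 6 genes per list by smallest p with the textbook leading genes, the 6 widest each way moving at every step, and 3 per time by the gap to the next time. A few genes that this rule names are not reported here. Members and lists were chosen with earlier results of these data known. Promoter windows were matched by symbol in the RefSeq table. Alternatives were pseudocounts of 0.1 and 1, other filters, scalings and time scales, and leaving out each library.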

Additional observations from a re-analysis of the deposited data

How the results depend on the processing

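Leaving out 1 library at a time moved the late against early counts to between 0 and 2540 genes higher and between 0 and 1128 lower, the high counts coming without 24 h, and the slope counts to between 123 and 2016 rising and between 87 and 1075 falling. The outer times alone gave 2017 genes higher and 1022 lower. With no filter on low values 0 genes rose and 0 fell by slope (22026 tested), and a mean of at least 5 RPKM gave 856 rising. Median centring gave 1026 rising and 1238 falling, quantile normalization 1019 rising, and a slope on hours 1278 falling. Without 6, 48 and 72 h, 594, 304 and 205 of the 2362 calls were kept. The cause of these changes was not tested. Both pseudocounts, no mean-variance trend and gene models of at least 400 bases only left every count within 1.5 times. Of the single genes, none that passed turned sign. Of those that did not, LOC645249 was 0.29 higher late in the outer times, and without 1 library ran from -0.27 to 0.19 (slope -0.010 to 0.066). PIP ran from -0.035 to 1.50, SERPINB11 from -0.79 to 0.051, and NT5E from -0.054 to 0.18 by slope. TRPA1 ran from -0.082 to 0.45 (slope -0.087 to 0.15), and was -0.016 (slope -0.040) under quantile normalization, -0.0017 in the outer times and -0.00268 per hour. VIM ran from -0.24 to 0.21 (slope -0.095 to 0.028), and was 0.054 under quantile normalization. The labels of these libraries give no replicate numbers. No paired analysis was possible because each time has 1 library. With 1 library per time, depth that differs with time and an unknown joining of replicates, small changes of low genes cannot be resolved.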
